A study of Homo sapiens with 12 samples.

Results

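RNA bound in a cap immunoprecipitation (Cap IP) was compared with the total RNA (input) of the same kind of cells, in U2OS cells that carry the vector. U2OS is a human osteosarcoma line. The cells stably carry the vector without eIF4E-Flag and serve as the controls of the eIF4E-Flag cells of the series. The members were chosen by the labels and are 6 of the 12 libraries, with 3 libraries of input and 3 of Cap IP. All were made from total RNA with the KAPA RNA HyperPrep kit with RiboErase, which removes ribosomal RNA, and sequenced for 75 cycles from 1 end. Each Cap IP library shares the stem of its title with 1 input library. These are called library pairs 1, 2 and 3 here, because the labels do not say whether the libraries come from separate cultures. The p-values therefore measure only the spread between these samples, which may be technical.

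The m7G cap is a methylated guanosine that is joined to the 5′ end of RNA polymerase II transcripts as they are made. It protects the RNA from 5′ decay and is bound by the nuclear cap-binding complex and by eIF4E, the translation factor that brings mRNAs to the ribosome. RNA polymerase III transcripts, mitochondrial transcripts and snoRNAs that are cut out of introns do not carry it, and several small nuclear RNAs carry a trimethylated form. An immunoprecipitation with a cap antibody is read by setting the bound RNA against the input.

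The cap sits on the first transcribed base, so the starts of 8 genes of 3 groups described below, ribosomal proteins, histones and giant genes, are printed here, from 40 bases before to 20 bases after the RefSeq start in GRCh38.p14. Ribosomal protein and other TOP mRNAs are known for starting with a C and a run of pyrimidines. Histone genes are known for a TATA box. The ribosomal protein and histone genes printed were picked for holding these stretches, and the giant genes for lacking them. The contrast between the printed windows was therefore fixed by the choice. Capitals mark a C followed by 5 or more bases that are C or T within 5 bases of the start in RPL26, FAU and RPS14, and TATAA between 40 and 20 bases before the start in HIST1H1E and HIST1H2AB. The printed windows of UBR4, HUWE1 and HERC2, which encode giant ubiquitin ligases, had no such stretch beginning within 5 bases of the start and no TATAA in that range. Other windows of these genes are not described. HERC2 does hold cccctc just before the start, which begins outside the range searched.
RPL26 (chr17:8383174-8383233, minus strand): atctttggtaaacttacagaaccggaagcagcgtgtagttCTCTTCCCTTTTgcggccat
FAU (chr11:65122115-65122174, minus strand): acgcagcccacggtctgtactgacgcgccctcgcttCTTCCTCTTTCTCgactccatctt
RPS14 (chr5:150449720-150449779, minus strand): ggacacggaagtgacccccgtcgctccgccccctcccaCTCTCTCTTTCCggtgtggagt
HIST1H1E (chr6:26156289-26156348, plus strand): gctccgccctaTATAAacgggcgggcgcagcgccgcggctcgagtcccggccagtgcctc
HIST1H2AB (chr6:26033599-26033658, minus strand): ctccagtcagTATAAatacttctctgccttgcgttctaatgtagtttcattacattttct
UBR4 (chr1:19210247-19210306, minus strand): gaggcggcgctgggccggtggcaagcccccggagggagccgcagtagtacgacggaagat
HUWE1 (chrX:53686700-53686759, minus strand): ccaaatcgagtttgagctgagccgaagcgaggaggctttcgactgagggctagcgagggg
HERC2 (chr15:28322160-28322219, minus strand): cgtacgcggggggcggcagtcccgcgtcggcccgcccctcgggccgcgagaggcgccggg

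Only the strand of the gene was read for each window. The pyrimidine start was found in 84.7% of 59 ribosomal protein genes with a window, in 84.6% of 13 other TOP genes, in 21.4% of 28 histone genes and in 20.7% of 58 genes of giant proteins. A gene counted if any of its windows held the stretch. By that measure it was found in 16.7% of 3761 genes of tested mRNAs without opposite exons. Over all 35116 RefSeq windows, counted singly, the share was 11.1%. TATAA was found in 85.7% of the histone genes, 11.9% of the ribosomal protein genes and 1.72% of the giant genes. It was found in 4.55% of those 3761 genes and in 3.77% of all windows. A match describes these letters and is no test of factor binding.

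Values are counts per row of the file, where a row is 1 gene name. Input libraries of the vector cells held 1279340 to 1813486 counts and Cap IP libraries 1385397 to 1786940. Between 22908 and 25950 rows were detected in an input library and between 18688 and 20381 in a Cap IP library. CPM, the counts scaled to library size, use TMM factors, which were 1.24 to 1.35 in input and 0.667 to 0.891 in Cap IP, so that 3 counts, used here as the floor, came to between 1.26 and 3.15 CPM. Of 14 osteoblast and osteosarcoma markers 6 were above that floor in input, with a sum of 992 to 1454 CPM and IBSP at 0. The sums were 1392 to 2274 CPM for epithelial markers, of which 7 of 12 were above the floor and ESRP1, GRHL2 and KRT19 at 0, and 6.46 to 8.55 CPM for blood markers, of which 1 of 11 was above the floor and CD14, HBB, CD3E and LYZ at 0. They were 60.8 to 83.9 CPM for neuronal markers (5 of 10, with STMN2 and DCX at 0) and 46.4 to 69.5 CPM for endothelial markers (3 of 7). The part of other cells in any result was not tested, and in bulk samples fewer cells of a type and less RNA per cell cannot be told apart. The EIF4E row stood at 4.81 to 9.70 CPM in vector input and 11.9 to 15.4 CPM in eIF4E-Flag input. The labels and processing notes do not say on which strand reads were counted, and the counts of a row and of a gene with exons on the opposite strand cannot be told apart. Rows with such exons are named with their opposite gene, except COL1A1, COPG1, DYNC1H1, EIF4E, EIF4E2, FLNA, FTO, GINS3, ITGA10, LINC00442, PCIF1 and PRPF8, which lie opposite to genes without a symbol. The unknown strand setting bears on rows without opposite exons as well, and its part in their values was not tested.

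Over the 12460 rows with enough counts to test, 48.1% had an unadjusted p under 0.05 and 39.5% changed between Cap IP and input by edgeR's quasi-likelihood test with Benjamini-Hochberg adjustment. Of all rows tested, 18.5% rose in Cap IP and 21% fell. This split depends on the scaling. With total counts as library sizes 5.92% rose and 40.2% fell, and the median log2 change of all rows moved from -0.04 to -0.78. Levels of single genes are therefore read against that shift, and each family that rose is given under both scalings. Without a model, the 3 Cap IP libraries lay above the 3 input libraries for 22.7% of rows and below them for 27.2%. Log2 CPM of the 12460 rows correlated with r of 0.912 to 0.924 between input libraries, 0.914 to 0.934 between Cap IP libraries and 0.712 to 0.791 between the fractions. These are correlations across genes, which are not independent replicates.

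RNAs that lack an m7G cap included the rows with the largest fall. RNA polymerase III transcripts took 2.28%, 1.08% and 1.15% of all counts in the 3 input libraries and 0.00974%, 0.0103% and 0.0215% in the 3 Cap IP libraries. No Cap IP library came near any input library. Of 536 such rows in the file 127 had a count and 8 were tested, of which 5 fell, 1 rose and the median log2 change was -6.73. Over all rows tested 21% fell and 18.5% rose. With total counts 6 of the 8 fell and 1 rose, against 40.2% and 5.92% of all rows. A member with few Cap IP counts could pass the filter only where it was high in another group. The filter thus fixed the direction of such members, and these counts and medians are a description. The row that rose was RNA5SP216, a 5S rRNA pseudogene with 4.53, 2.14 and 2.11 CPM in input and 13.6, 14.7 and 16.6 CPM in Cap IP, and its exons lie opposite to HINT3. The abundant members included RN7SL1, a part of the signal recognition particle, and RN7SK, which holds the elongation factor P-TEFb inactive and carries a methylated phosphate rather than an m7G cap. RN7SK stood at 3899, 2492 and 2779 CPM in input and 5.83, 1.05 and 17.9 CPM in Cap IP.

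Small nucleolar and Cajal body RNAs guide the modification of ribosomal and spliceosomal RNA, and most are cut out of introns. SNORD3A, a box C/D RNA that is not, carries a trimethylguanosine cap and is also counted with such RNAs in the next paragraph. The rows of all snoRNAs and scaRNAs held 0.349%, 0.168% and 0.123% of counts in input and 0.0162%, 0.00784% and 0.0140% in Cap IP, and SNORD3A alone held 0.246%, 0.103% and 0.0694% in input. Tested were 5 box C/D RNAs with 4 that fell (median -4.23, the value of SNORD3A itself), 7 box H/ACA RNAs with 6 that fell (-2.64) and 8 scaRNAs with 7 that fell (-5.33), and none of the 20 rose. Over all rows tested 21% fell. The filter kept rows that reached enough counts in 1 of the groups, so these are the members that were abundant in 1 fraction. A member with few or no Cap IP counts could pass only where it was high in another group. The filter thus fixed the direction of such members, and these counts and medians are a description. SCARNA22 had 20, 13 and 25 counts in input and no count in any Cap IP library, which makes it at least 11.8-fold lower if 3 counts are taken as the floor of the whole Cap IP group. SNORD17 (24, 9 and 13 counts in input) was at least 9.39-fold lower by the same floor, SNORA71A (28, 8 and 11 counts in input) at least 9.60-fold and SCARNA21 (16, 12 and 22 counts in input) at least 10.2-fold. SNORD33 kept 1 count over the Cap IP group, with a log2 ratio of -5.82 (95% counting interval -11.14 to -3.30). SNORD55 changed by -3.01 ± 0.54 (SE). SNORA48 fell least among the members named here, with 33.6, 13.4 and 14.3 CPM in input and 4.86, 2.10 and 7.02 CPM in Cap IP and a log2 change of -2.02 ± 0.50 (SE) (edgeR adjusted p = 0.0033).

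RNAs with a trimethylguanosine cap were few among the tested rows. Of 26 such rows 4 were tested, 2 fell, against 21% of all rows, and the median log2 change was -1.29. SNORD3A, the U3 RNA that guides the cutting of pre-rRNA, stood at 2038, 819 and 530.4 CPM in input and 63.2, 50.4 and 65.8 CPM in Cap IP, and changed by -4.23 ± 0.44 (SE) (edgeR adjusted p = 1.68e-06). RNU12, of the minor spliceosome, stood at 69.2, 42.8 and 25.3 CPM in input and 17.5, 6.31 and 12.1 CPM in Cap IP and changed by -1.90 ± 0.45 (SE). In both rows every Cap IP library lay below every input library. RNU4-1, the U4 RNA of the major spliceosome, overlapped at 7.11, 5.88 and 3.37 CPM in input and 3.89, 3.15 and 5.75 CPM in Cap IP and did not pass (log2 change -0.28, edgeR adjusted p = 0.761), and SNORD3B-2 did not pass either (-0.68, adjusted p = 0.354). The floor of 3 counts was 2.92, 3.15 and 1.92 CPM in the Cap IP libraries. RNU4-1 lay too close to it for a large fall to be seen.

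Mitochondrial transcripts, which are made in the organelle and are not capped with m7G, were lower but far less evenly. Their 13 mRNAs held 4.35%, 3.04% and 3.27% of counts in input and 1.72%, 0.367% and 2.43% in Cap IP. Library pair 2 had the lowest share in Cap IP, and the median log2 change of the 13 mRNAs was -1.0, -2.90 and -0.31 in pairs 1, 2 and 3. Of the 13, 6 fell and 7 did not pass the test, against 21% of all rows that fell. With total counts 8 of the 13 fell, against 40.2% of all rows. MT-CO1, a subunit of cytochrome c oxidase, stood at 1173, 1159 and 894 CPM in input and 142, 71.5 and 129.6 CPM in Cap IP and changed by -3.23 ± 0.34 (SE) (edgeR adjusted p = 1.77e-06). MT-CO2, its neighbour in that complex, stood at 1019, 906 and 960.0 CPM in input and 90.4, 36.8 and 129.6 CPM in Cap IP. MT-CO3 and MT-ND3 changed by -2.70 and -2.60. In all 4 rows every Cap IP library lay below every input library. MT-ND5, a subunit of complex I, showed no such order. It stood at 11327, 7275 and 7562 CPM in input and 8885, 1638 and 11438 CPM in Cap IP, with a log2 change of -0.25 ± 0.52 (SE) that did not pass (adjusted p = 0.734).

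Among 12 tested mitochondrial rRNAs and tRNAs 5 fell, none rose and the median was -0.94. With total counts 6 of the 12 fell. Over all rows tested 21% fell with TMM and 40.2% with total counts. MT-TC, the cysteine tRNA, stood at 352, 247 and 240.3 CPM in input and 16.5, 7.36 and 14 CPM in Cap IP and changed by -4.44 ± 0.36 (SE) (edgeR adjusted p = 6.85e-08). MT-TY, the tyrosine tRNA, stood at 377, 220.2 and 232 CPM in input and 28.2, 13.7 and 15.3 CPM in Cap IP. The rRNA rows MT-RNR1 and MT-RNR2 passed the test with groups that overlapped. MT-RNR1 stood at 202, 27.3 and 6.75 CPM in input and 0.972, 1.05 and 7.02 CPM in Cap IP, so that its fall rests on input libraries 1 and 2, and MT-RNR2 stood at 317, 43.3 and 5.90 CPM in input and 6.81, 3.15 and 6.38 CPM in Cap IP. RiboErase depletion also acts on ribosomal RNA, and its part in these 2 rows was not tested.

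**Figure D1:**
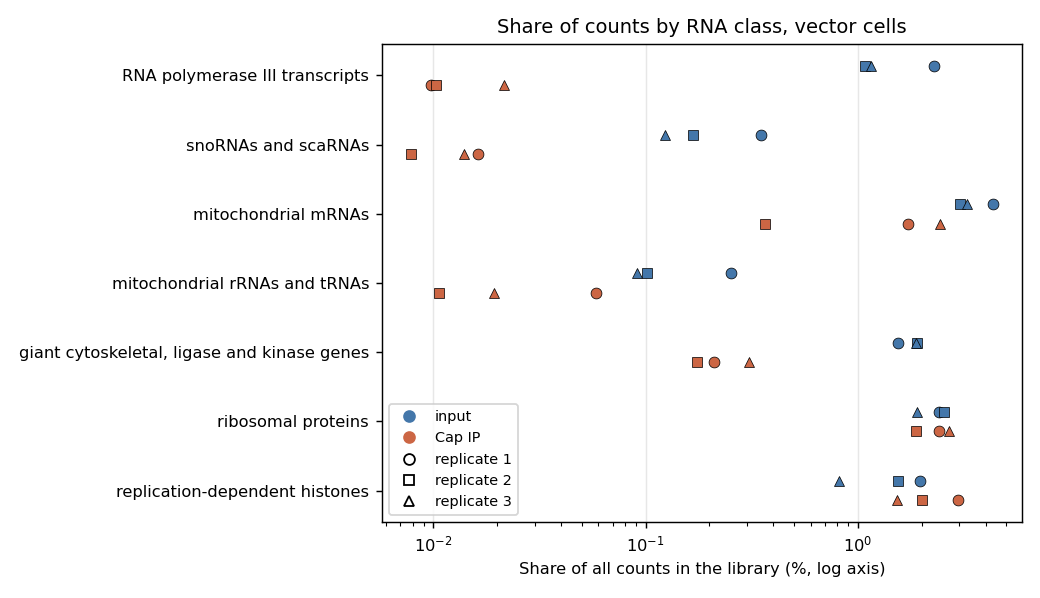
Share of all counts in each of the 6 vector libraries, in percent on a log axis, for 7 classes of RNA. Input is blue, Cap IP is orange, and the marker shape gives the library pair. RNA polymerase III transcripts lie at 1.08% to 2.28% in input and 0.00974% to 0.0215% in Cap IP, mitochondrial mRNAs spread from 0.367% to 2.43% in Cap IP, and ribosomal proteins overlap between the fractions.

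Replication-dependent histone mRNAs, which are capped but end in a stem-loop in place of a poly(A) tail, were among the mRNAs that rose with TMM scaling. Of 37 tested members 16 rose and none fell, against 18.5% of all rows that rose. Their median log2 change was 0.92 with TMM scaling, and with total counts it was 0.12, where 2 rose and 1 fell. They held 1.96%, 1.55% and 0.814% of counts in input and 2.98%, 2.01% and 1.53% in Cap IP, which is more in the Cap IP library of each pair although the ranges overlap. HIST1H1E, a linker histone, stood at 4572, 3493 and 1759 CPM in input and 14834, 10760.1 and 6792 CPM in Cap IP and changed by 1.72 ± 0.40 (SE) (edgeR adjusted p = 0.00223). HIST1H4I, a core histone H4, stood at 624, 573 and 481 CPM in input and 2433, 3352 and 1518 CPM in Cap IP and changed by 2.12 ± 0.41 (SE) (adjusted p = 0.000484). In both rows all 3 Cap IP libraries lay above all 3 input libraries, and both calls were kept with total counts (0.96, adjusted p = 0.0227, and 1.32, adjusted p = 0.00474). HIST1H2AB, a core histone H2A whose start is printed above, stood at 99.6, 76.4 and 37.1 CPM in input and 317, 218 and 111 CPM in Cap IP and changed by 1.60. With total counts its change was 0.83 and no longer passed (adjusted p = 0.0548). HIST2H2AB, opposite to BOLA1, changed by 1.33 and by 0.55 with total counts (adjusted p = 0.0897).

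Ribosomal protein mRNAs, the main group of TOP mRNAs, were described next, against 18.5% of all rows that rose. Of 44 large subunit genes 16 rose, of 31 small subunit genes 12 rose, none of either fell, and the medians were 0.66 and 0.64 with TMM and -0.09 and -0.11 with total counts, where 1 rose and 1 fell in each. All 44 large and 30 of 31 small subunit genes had a positive log2 change with TMM. As a share of all counts they held 2.28 ± 0.339% in input and 2.33 ± 0.416% in Cap IP (SD, n = 3), which overlap. RPL26, of the large subunit, stood at 105, 148 and 116 CPM in input and 329, 279.6 and 389 CPM in Cap IP and changed by 1.44 ± 0.28 (SE) (edgeR adjusted p = 0.000487; 0.71 and 0.0451 with total counts). FAU, whose precursor is cut to the small subunit protein eS30, stood at 118, 133 and 102 CPM in input and 280.0, 310.0 and 288 CPM in Cap IP and changed by 1.32, and with total counts by 0.57 without passing (adjusted p = 0.0648). In both rows the fractions did not overlap. RPS14, the third gene with its start printed above, stood at 262, 321 and 262 CPM in input and 594, 549 and 673 CPM in Cap IP, with a log2 change of 1.10 ± 0.27 (SE) (adjusted p = 0.00284) that became 0.37 with total counts (adjusted p = 0.216). RPS25, opposite to CCDC84, rose by 1.70 ± 0.27 (SE) and passed with both scalings. RPL36 (opposite to LONP1), RPL27A (opposite to ST5), RPL31 (opposite to TBC1D8), RPS28 (opposite to NDUFA7) and RPS2 changed by 1.32, 1.14, 1.12, 1.24 and 1.14 with TMM, and none of these 5 calls held with total counts (0.57, 0.40, 0.38, 0.50 and 0.40).

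Other TOP mRNAs were mixed. Of 19 tested, 4 rose and 1 fell, with a median of 0.44 with TMM and -0.30 with total counts, where none rose and 4 fell. The share that rose with TMM, 21.1%, was near the 18.5% of all rows. BTF3 and NACA, the subunits of the nascent polypeptide-associated complex, changed by 0.98 ± 0.25 (SE) and 0.98 ± 0.26 (SE), and by 0.24 and 0.24 with total counts, where neither passed. EEF2, the translocation factor of elongation, was the member that fell. It stood at 1148, 1321 and 1054 CPM in input and 593, 508 and 757 CPM in Cap IP, with no overlap, and changed by -0.92 ± 0.27 (SE) (edgeR adjusted p = 0.0112). Without Cap IP library 2 its adjusted p was 0.0508.

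Short mRNAs of mitochondrial proteins encoded in the nucleus had positive medians with TMM, as ribosomal protein mRNAs did, and negative ones with total counts. All rows tested had 18.5% that rose and 21% that fell with TMM, and 5.92% and 40.2% with total counts. Of 67 tested respiratory chain subunits 21 rose and 1 fell, with a median of 0.64 with TMM and -0.11 with total counts, where 4 rose and 11 fell. NDUFA1, a subunit of complex I, stood at 18.7, 16 and 19.8 CPM in input and 49.6, 62.0 and 57.5 CPM in Cap IP and changed by 1.62 ± 0.29 (SE) (edgeR adjusted p = 0.000265; 0.87 and 0.0203 with total counts). NDUFA3, opposite to TFPT, and ATP5J, of the ATP synthase and opposite to GABPA, rose by 1.63 and 1.66 and were also called with total counts. NDUFB11, opposite to RBM10, changed by 1.37, or 0.62 with total counts (adjusted p = 0.0615). ATP5B, the catalytic beta subunit of the ATP synthase, was the 1 member that fell. It stood at 69.2, 93.5 and 42.6 CPM in input and 25.3, 39.9 and 25.5 CPM in Cap IP and changed by -1.18 ± 0.33 (SE), with an adjusted p of 0.00743, or 0.0552 without input library 2. Of 61 tested mitochondrial ribosomal proteins 13 rose and 2 fell, with a median of 0.56 with TMM and -0.19 with total counts, where none rose and 7 fell. The share that rose with TMM, 21.3%, was near that of all rows. MRPS26 stood at 16.2, 25.1 and 10.5 CPM in input and 50.6, 51.5 and 42.1 CPM in Cap IP, and MRPS12 at 26.5, 42.2 and 23.6 CPM in input and 75.8, 111 and 59.4 CPM in Cap IP. They changed by 1.48 and 1.41 without overlap, and with total counts by 0.72 and 0.63 without passing. The fallen members were MRPL16 and MRPL49, the latter opposite to SYVN1, with -1.55 and -0.94. Each of these 2 calls was lost without 1 of 2 Cap IP libraries, MRPL16 without library 1 (adjusted p = 0.0588) or 2 (0.0543) and MRPL49 without library 1 (0.0541) or 3 (0.062).

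Of 37 small modifiers and nucleotide-related proteins, a list of short housekeeping mRNAs, 13 rose and none fell, with a median of 0.79 with TMM and 0.05 with total counts, where 1 rose and 3 fell. ATG12, a ubiquitin-like protein of autophagy, rose by 1.69 ± 0.35 (SE) and lies opposite to AP3S1. PTMS, which encodes parathymosin, stood at 581, 508 and 552 CPM in input and 1235, 829 and 1152 CPM in Cap IP, and its change of 0.97 became 0.24 with total counts (adjusted p = 0.434). Of 32 tested secretory pathway genes 7 rose and 5 fell, near the shares of all rows (18.5% and 21%), with a median of 0.30, or -0.45 with total counts, where 3 rose and 9 fell. SRP14, the small Alu-binding subunit of the signal recognition particle, stood at 22.0, 28.3 and 13.5 CPM in input and 76.8, 75.7 and 67.7 CPM in Cap IP and changed by 1.79 ± 0.30 (SE) (edgeR adjusted p = 0.000134; 1.04 and 0.0118 with total counts). SSR4, of the translocon-associated complex and opposite to IDH3G, changed by 1.46 ± 0.26 (SE). COPG1, a coat subunit of COPI vesicles, stood at 60.8, 60.4 and 54.4 CPM in input and 18.5, 23.1 and 22.3 CPM in Cap IP and changed by -1.45 ± 0.28 (SE), and SEC61A1, the channel of the translocon and opposite to RUVBL1, by -1.40 ± 0.30 (SE). None of these 4 rows overlapped between the fractions.

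**Figure D2:**
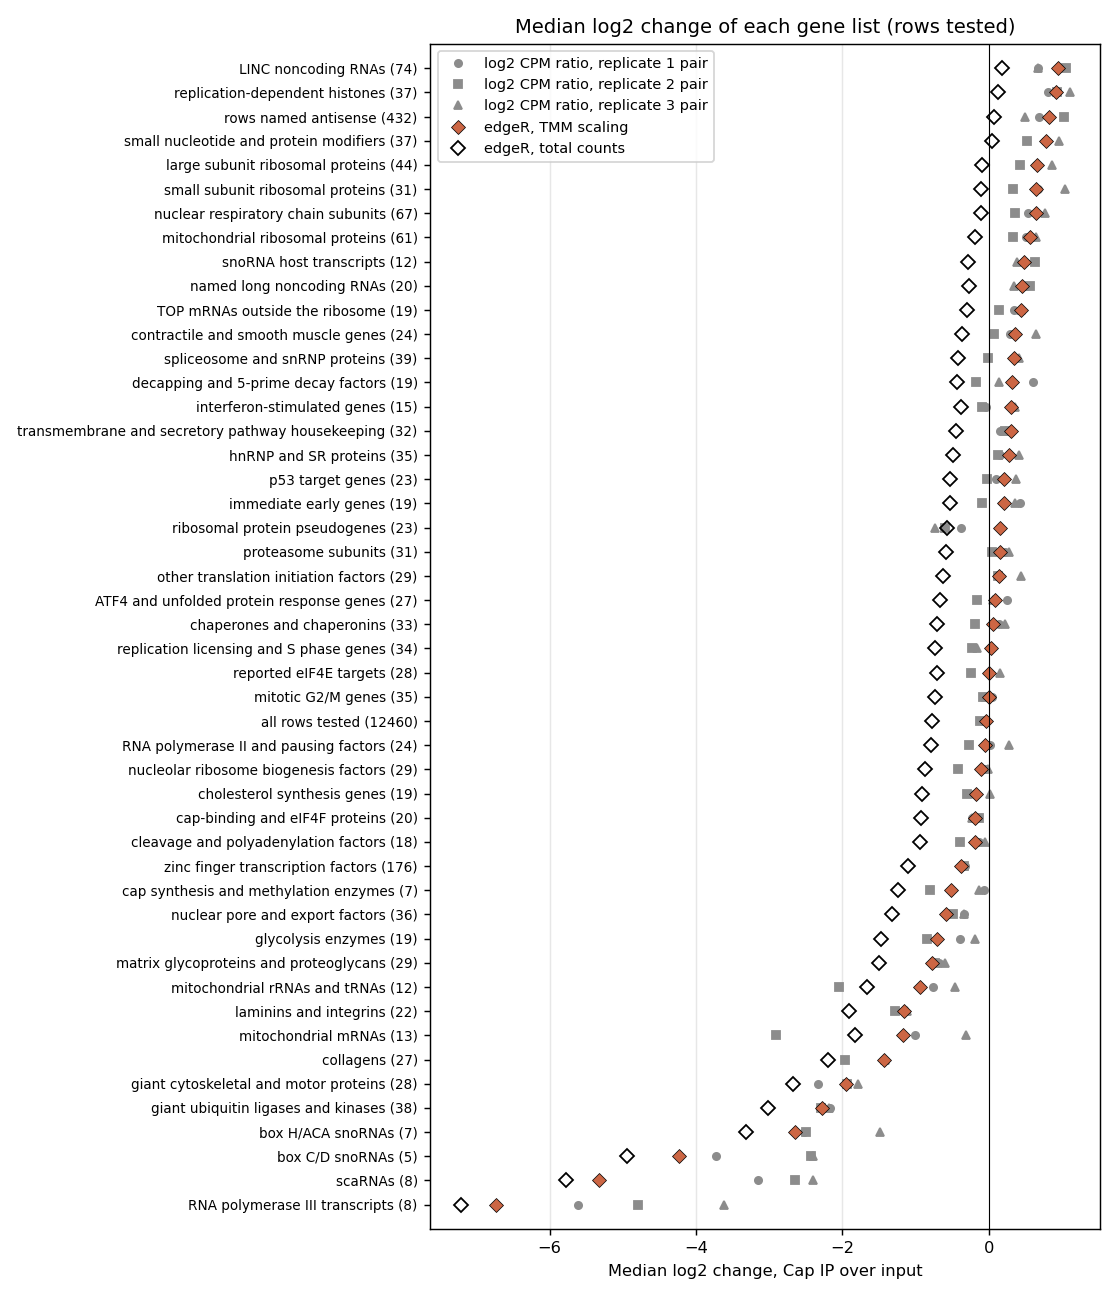
Median log2 change of Cap IP over input for each gene list with 5 or more tested rows (number in parentheses), sorted. Filled diamonds are edgeR with TMM scaling, open diamonds edgeR with total counts, and grey markers the medians of the 3 library pairs. Histones lie at 0.92 with TMM and 0.12 with total counts, all rows at -0.04 and -0.78, giant ubiquitin ligases and kinases at -2.28 and -3.01, and RNA polymerase III transcripts at -6.73 and -7.21.

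Genes of 2 lists of giant proteins, which have very long mRNAs, fell in most cases. The list names are loose labels, and giant proteins of other kinds, such as KMT2D and LRP1, are among the genes described. The giant ubiquitin ligase and kinase list had 38 tested genes, of which 34 fell and none rose, against 21% of all rows that fell, and its median was -2.28 (-2.18, -2.29 and -2.18 in the 3 library pairs). Of 28 giant cytoskeletal and motor genes 21 fell and none rose, with a median of -1.95. With total counts 37 of the 38 and 25 of the 28 fell. Both lists together held 1.55%, 1.90% and 1.88% of counts in input and 0.210%, 0.175% and 0.307% in Cap IP.

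HUWE1, a ubiquitin ligase with a longest transcript of 14796 bases, stood at 233, 264 and 312 CPM in input and 16.5, 22.1 and 20.4 CPM in Cap IP and changed by -3.77 ± 0.35 (SE) (edgeR adjusted p = 4.09e-07). UBR4, an N-recognin ligase of 15892 bases, stood at 99.6, 136 and 131 CPM in input and 11.7, 9.46 and 13.4 CPM in Cap IP and changed by -3.38 ± 0.30 (SE). Every Cap IP library was below every input library in both, and the libraries of a fraction lay close together. HERC2, which has partial copies elsewhere in the genome that may share its reads, stood at 47.2, 66.8 and 63.7 CPM in input and 3.89, 2.10 and 6.38 CPM in Cap IP and changed by -3.73 ± 0.38 (SE). KMT2D, the histone H3 lysine methyltransferase, stood at 129.9, 114 and 113 CPM in input and 6.81, 7.36 and 11.5 CPM in Cap IP and lies opposite to DDN-AS1. LRP1, a giant endocytic receptor opposite to STAT6, stood at 276, 211 and 390.4 CPM in input and 17.5, 14.7 and 28.7 CPM in Cap IP. These 2 rows changed by -3.74 ± 0.33 (SE) and -3.81 ± 0.34 (SE). Among cytoskeletal genes PLEC, which encodes the linker plectin, stood at 1687, 2075 and 1761 CPM in input and 185, 147 and 303 CPM in Cap IP and changed by -3.12 ± 0.34 (SE). DYNC1H1, the dynein heavy chain, stood at 152, 141 and 191 CPM in input and 4.86, 4.20 and 12.8 CPM in Cap IP, a change of -4.36 ± 0.42 (SE). FLNA, the actin crosslinker filamin A, stood at 2405, 2614 and 2548 CPM in input and 379, 334 and 503 CPM in Cap IP, and TLN1, which links integrins to actin, at 341, 439 and 379 CPM in input and 58.3, 58.9 and 83.0 CPM in Cap IP. Their changes of -2.64 and -2.53 were smaller than that of DYNC1H1, and none of these 4 rows overlapped between the fractions.

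Collagens, laminins and other matrix genes, which build the extracellular matrix, fell in part, against 21% of all rows that fell. Of 27 tested collagen genes 17 fell and none rose, with a median of -1.43, and with total counts 22 fell. COL1A1, the main chain of bone collagen, stood at 1067, 698 and 1019 CPM in input and 254, 162 and 321 CPM in Cap IP and changed by -1.91 ± 0.31 (SE) (edgeR adjusted p = 0.000105). COL16A1, opposite to PEF1-AS1, changed by -1.76 ± 0.30 (SE), COL27A1 by -2.62 ± 0.43 (SE) and COL20A1 by -4.19 ± 0.61 (SE), and none of these 4 rows overlapped. Of 22 laminins and integrins 11 fell and 1 rose, with a median of -1.16, and with total counts 14 fell and none rose. LAMA5, a laminin alpha chain opposite to ADRM1, stood at 219, 143 and 220.1 CPM in input and 34.0, 14.7 and 25.5 CPM in Cap IP, and ITGA5, of the fibronectin receptor and opposite to GPR84-AS1, at 39.4, 39.6 and 48.5 CPM in input and 12.6, 6.31 and 10.2 CPM in Cap IP. They changed by -2.96 ± 0.35 (SE) and -2.11 ± 0.40 (SE). LAMB2 and LAMC1 changed by -2.09 and -1.92. The row that rose, ITGA10, stood at 6.46, 3.21 and 15.2 CPM in input and 21.4, 11.6 and 42.1 CPM in Cap IP with overlap, and its call (adjusted p = 0.0196) was lost without input library 1 (0.0587), input library 2 (0.0874) or Cap IP library 3 (0.188). Of 29 matrix glycoproteins and proteoglycans 12 fell and none rose, with a median of -0.77, and with total counts 20 fell. HSPG2, which encodes perlecan and lies opposite to LDLRAD2, stood at 189, 219 and 239 CPM in input and 14.6, 4.20 and 8.94 CPM in Cap IP and changed by -4.52 ± 0.36 (SE) (adjusted p = 6.34e-08). AGRN, which encodes agrin, changed by -2.63 ± 0.47 (SE), FBN2, a fibrillin opposite to SLC27A6, by -2.69 ± 0.37 (SE) and THBS1, a thrombospondin opposite to FSIP1, by -1.80 ± 0.33 (SE).

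Contractile genes were set beside these matrix genes. Of 24 tested 5 rose and 2 fell, with a median of 0.36 with TMM and -0.36 with total counts, where none rose and 9 fell. The share that rose with TMM, 20.8%, was near the 18.5% of all rows. TPM2, a tropomyosin, stood at 334, 308 and 214 CPM in input and 603, 472 and 524 CPM in Cap IP and changed by 0.90 ± 0.26 (SE), and MYL12A, a myosin light chain opposite to MYL12-AS1, by 0.96 ± 0.27 (SE). The TPM2 call was lost without input library 3 (edgeR adjusted p = 0.0606), and neither call held with total counts (0.17 and 0.22).

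**Figure D3:**
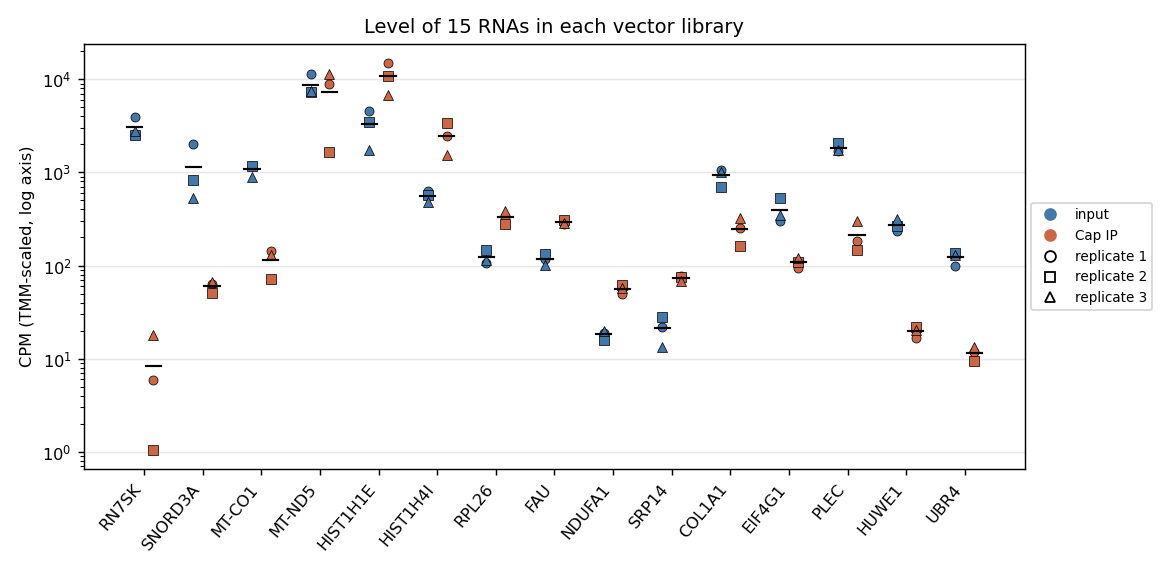
Level of 15 RNAs in each vector library, as CPM with TMM scaling on a log axis. Points are libraries, with input in blue and Cap IP in orange, and bars are means of 3. Rows to the left lack an m7G cap or carry the trimethylated form, histone and short mRNAs in the middle stand higher in Cap IP with this scaling, and HUWE1 falls from 233 to 312 CPM in input to 16.5 to 22.1 CPM in Cap IP. With total counts as library sizes the changes of HIST1H1E, HIST1H4I, RPL26, FAU, NDUFA1 and SRP14 remained positive, with FAU no longer past the threshold.

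Lists of short mRNAs had positive medians with TMM and lists of giant genes negative ones with either scaling, so annotated length was described over all mRNAs. Among mRNA rows of nuclear genes with no exons opposite to another gene, 20 had a longest transcript under 500 bases, of which 7 rose, 1 fell and the median log2 change was 0.87. The median was 0.75 from 500 to under 1000 bases (139 rows), 0.40 from 1000 to under 2000 (610 rows) and 0.03 from 2000 to under 3000 (898 rows). It was -0.39 from 3000 to under 5000 bases (1422 rows), -0.73 from 5000 to under 8000 (1072 rows) and -1.18 at 8000 or more (476 rows). In the longest class 211 rows fell and 11 rose, and from 500 to under 1000 bases 42 rose and 7 fell. With total counts 328 fell and 1 rose in the longest class, and 2 rose and 13 fell from 500 to under 1000 bases. With total counts the medians ran from 0.11 in the shortest class to -1.91 in the longest, so the order was the same and the sign in the shorter classes was not. Each of the 3 library pairs gave the same order over the 7 classes. In pairs 1, 2 and 3 the median of the longest class was -1.0, -1.13 and -1.09.

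Other ways of grouping gave the same order. By the summed length of all exons of a gene the medians ran from 0.96 under 500 bases to -0.82 at 8000 or more. With rows limited to a mean log2 CPM of 5 or more, a limit added after seeing the data, they ran from 1.00 (15 rows) to -1.60 (107 rows, of which 72 fell and 4 rose). Rows with opposite exons, whose strand is uncertain, ran from 0.83 at 500 to under 1000 bases (88 rows) to -0.72 at 8000 or more (545 rows). Rows that lie opposite to an mRNA of 8000 or more bases had a median of -0.46 (270 rows), and those opposite to an mRNA of 1000 to under 2000 bases 0.61 (358 rows). The order was not strict, since those opposite to an mRNA of 500 to under 1000 bases had 0.47 (66 rows). With total counts these medians were -1.19, -0.15 and -0.26. The longest annotated transcript need not be the one expressed in U2OS cells, and no measure of RNA integrity was used here, so its part was not tested. The unknown strand setting bears on all of these classes, and its part was not tested either.

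**Figure D4:**
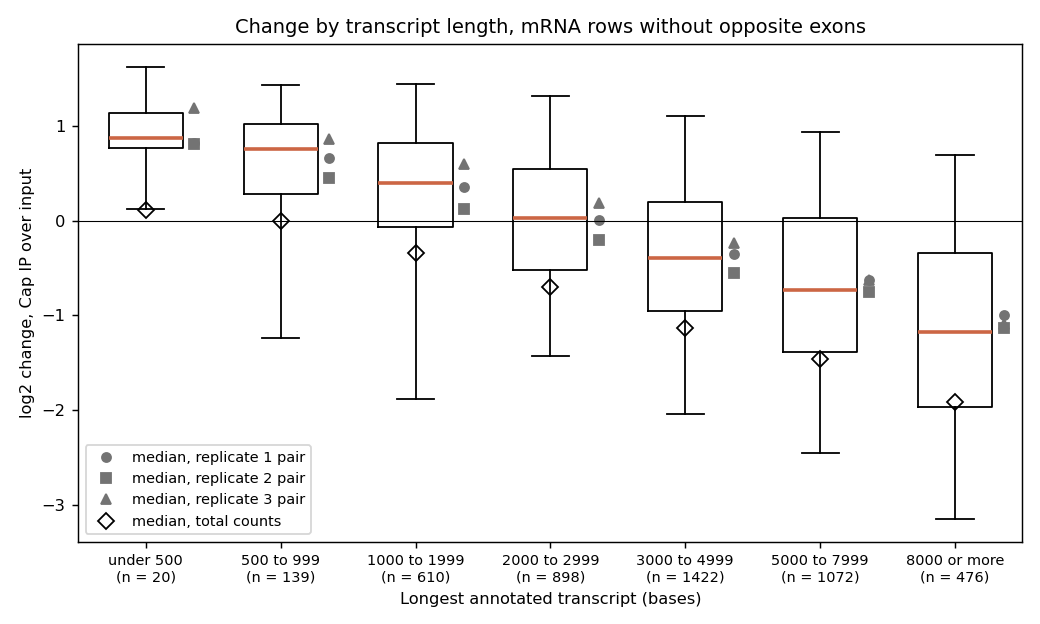
Log2 change of Cap IP over input for mRNA rows without opposite exons, in 7 classes of the longest annotated transcript. Boxes span the quartiles, whiskers the 5th to 95th percentile, the orange line is the median, grey markers are medians of the 3 library pairs and open diamonds the medians with total counts. Medians fall from 0.87 under 500 bases to -1.18 at 8000 or more, and with total counts from 0.11 to -1.91.

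GC content was set beside length. Over 3 equal classes of GC content, from 30.7% to 45.6%, from 45.6% to 55.5% and from 55.5% to 74.2%, the medians were 0.10, -0.49 and -0.40. With total counts they were -0.65, -1.22 and -1.14. Among mRNAs of 8000 or more bases they were -0.79 (250 rows, of which 69 fell), -1.43 (165 rows, 97 fell) and -2.02 (61 rows, 45 fell). From 5000 to under 8000 bases they were -0.16, -0.94 and -1.29. Among mRNAs of 500 to under 1000 bases the 3 classes lay close together, at 0.86, 0.72 and 0.79, or 0.16, -0.03 and 0.04 with total counts. A higher GC content thus went with a lower Cap IP level in long mRNAs, and a fall with length appeared within each GC class.

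**Figure D5:**
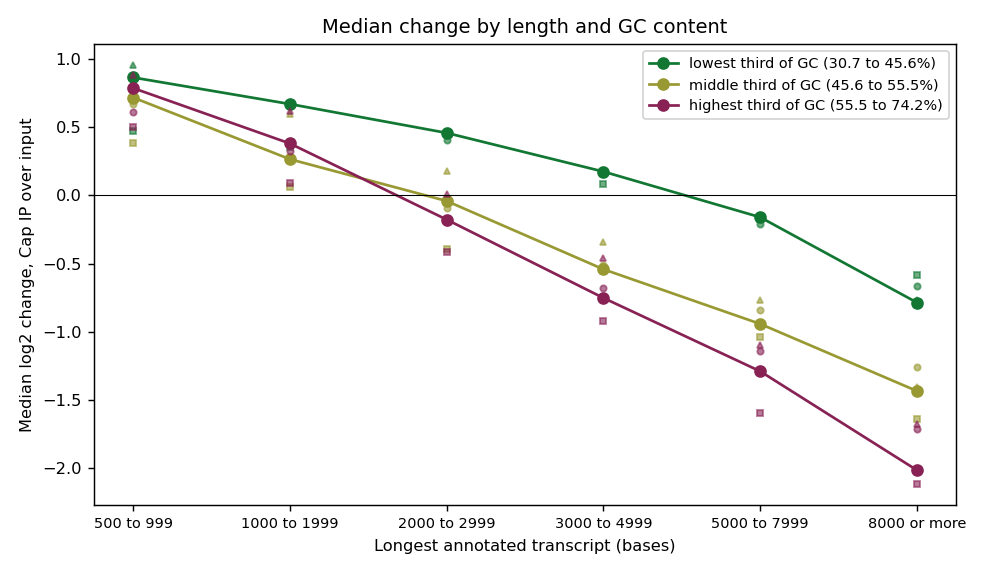
Median log2 change of mRNA rows without opposite exons by the longest annotated transcript, in 3 classes of GC content. Large points and lines are edgeR's medians with TMM scaling and small markers the medians of the 3 library pairs. At 500 to under 1000 bases the classes lie between 0.72 and 0.86, and at 8000 or more bases at -0.79, -1.43 and -2.02 from the lowest to the highest GC class.

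The pyrimidine start of TOP mRNAs was compared within length classes, a split added after seeing the data. From 1000 to under 2000 bases, 79 mRNAs with it had a median of 0.42 and 428 without it 0.40. From 500 to under 1000 bases the medians were 0.72 (19 rows) and 0.79 (94 rows), and at 8000 or more bases -0.85 (67 rows) and -1.22 (312 rows). With total counts the medians were -0.33 and -0.35, -0.03 and 0.04, and -1.59 and -1.95 in these classes, in the order given. In the 2 shorter of these classes the medians with and without it differed by less than those of the library pairs did.

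Noncoding transcripts of RNA polymerase II are mostly rows with opposite exons here. Their counts stand against 18.5% of all rows that rose and 21% that fell with TMM. Of 577 tested lncRNA rows 256 rose and 76 fell, with a median of 0.85 with TMM and 0.08 with total counts, where 94 rose and 143 fell. The 102 of them without opposite exons had 21 that rose, 29 that fell and a median of -0.13. Together they held 6.19 ± 0.873% of counts in input and 8.95 ± 1.66% in Cap IP (SD, n = 3). Of 74 LINC rows 34 rose and 9 fell, with a median of 0.95 (0.18 with total counts, where 14 rose and 17 fell). The 26 of them without opposite exons had 7 that rose, 4 that fell and a median of 0.11. Of 432 rows with an antisense name 194 rose and 60 fell, with a median of 0.82 (0.07 with total counts, where 72 rose and 115 fell), while the 58 without opposite exons had 10 that rose, 19 that fell and a median of -0.36. In both lists the median was thus lower in rows without opposite exons, and for the other rows the RNA counted is uncertain.

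LINC01465, opposite to MIRLET7IHG, stood at 43.3, 27.8 and 42.2 CPM in input and 132, 144 and 145 CPM in Cap IP and changed by 1.89 ± 0.28 (SE), and LINC00847, opposite to HEIH, stood at 45.9, 42.2 and 38.8 CPM in input and 169, 154 and 107 CPM in Cap IP. NDUFB2-AS1, opposite to NDUFB2, stood at 57.5, 68.4 and 58.2 CPM in input and 299, 436 and 336 CPM in Cap IP and changed by 2.54 ± 0.28 (SE). NCBP2-AS1, opposite to the cap-binding subunit gene NCBP2, rose by 2.34 ± 0.27 (SE). These 4 rows had no overlap and passed with both scalings. LINC00174, which has no opposite exons, fell, with 32, 29 and 52 counts in input and 3, 0 and 1 in Cap IP, where the log2 change was -4.0 ± 0.63 (SE). LINC00442 had 27, 30 and 43 counts in input and 0, 1 and 2 in Cap IP, with a log2 ratio of -4.35 (95% counting interval -6.65 to -2.76).

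Named lncRNAs were split, with 5 of 20 tested that rose and 2 that fell, and a median of 0.46 with TMM and -0.27 with total counts, where 1 rose and 3 fell. The shares of all rows with TMM were 18.5% higher and 21% lower. OIP5-AS1, also known as Cyrano and opposite to OIP5, stood at 111, 108 and 79.3 CPM in input and 402, 444 and 126 CPM in Cap IP, where Cap IP library 3 was much lower than the other 2 but above all input libraries. It changed by 1.70 ± 0.40 (SE) (edgeR adjusted p = 0.00239, 0.0423 with total counts). DLEU2, opposite to TRIM13, changed by 1.66 ± 0.35 (SE), or 0.92 with total counts (adjusted p = 0.0512). KCNQ1OT1, the long RNA that silences its imprinted neighbourhood and lies opposite to KCNQ1, had 5, 16 and 30 counts in input and 0, 0 and 2 in Cap IP, with a log2 ratio of -3.97 (95% counting interval -7.05 to -2.04). Of 12 snoRNA host transcripts, whose introns release snoRNAs, 2 rose and none fell, with a median of 0.48 with TMM and -0.28 with total counts, where none rose and 1 fell. SNHG7, opposite to FAM69B, stood at 90.5, 117 and 132 CPM in input and 179.9, 270.1 and 283 CPM in Cap IP and changed by 1.11 ± 0.27 (SE), which became 0.36 with total counts (adjusted p = 0.275). SNHG19 changed by 1.71, a call that was lost without Cap IP library 1 (0.0734) or input library 3 (0.0781) and with total counts (0.98).

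Genes of the cap machinery itself were followed next. Of 7 tested cap synthesis and methylation enzymes 1 rose and 2 fell, with a median of -0.51, and with total counts none rose and 3 fell. Of 20 cap-binding and eIF4F proteins 2 rose and 5 fell, with a median of -0.19, and with total counts none rose and 10 fell (-0.92). The share that fell with TMM is near the 21% of all rows. EIF4G1, the scaffold of eIF4F, stood at 298, 529.7 and 349.9 CPM in input and 94.3, 109 and 121 CPM in Cap IP and changed by -1.86 ± 0.28 (SE) (edgeR adjusted p = 5.79e-05). LARP1, which binds the cap and the pyrimidine start of TOP mRNAs, stood at 131, 228 and 149 CPM in input and 53.5, 38.9 and 38.9 CPM in Cap IP and changed by -1.95 ± 0.29 (SE). CYFIP2, an eIF4E-binding relative of CYFIP1 and opposite to ADAM19, changed by -1.44 ± 0.31 (SE). All 3 had Cap IP below input without overlap. CMTR1, which methylates the first transcribed nucleotide, stood at 63.4, 43.8 and 45.1 CPM in input and 19.4, 9.46 and 13.4 CPM in Cap IP, and FTO, a demethylase that can act on that nucleotide, changed by -1.93 ± 0.48 (SE). The mRNA of EIF4E itself stood at 9.70, 4.81 and 6.32 CPM in input and 14.6, 12.6 and 19.2 CPM in Cap IP, a change of 1.19 that passed (adjusted p = 0.0163), and was lost with total counts (0.47) and without input library 2 (0.0699), input library 3 (0.0564) or Cap IP library 3 (0.0845). PCIF1, which methylates an adenosine next to the cap, changed by 0.90, and was lost with total counts (0.18) and without input library 1 (0.0678), input library 2 (0.0864) or Cap IP library 3 (0.108). EIF4E2, a cap-binding relative of EIF4E, overlapped, and its change of 0.85 (adjusted p = 0.0419) was lost with total counts (0.09, adjusted p = 0.826) and without Cap IP library 1 (0.167), Cap IP library 2 (0.0794), input library 2 (0.146) or input library 3 (0.165).

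Of 19 decapping and 5′ decay factors 2 rose and 4 fell, with a median of 0.32 with TMM and -0.43 with total counts, where 1 rose and 7 fell. The share that fell with TMM, 21.1%, was near the 21% of all rows, of which 18.5% rose. LSM3, of the LSM ring that binds deadenylated mRNA, stood at 56.9, 41.2 and 50.2 CPM in input and 206, 129 and 115 CPM in Cap IP and changed by 1.60 ± 0.28 (SE) (edgeR adjusted p = 0.000182; 0.84 and 0.0155 with total counts). EDC4, the scaffold of the decapping complex, stood at 23.9, 19.2 and 19.8 CPM in input and 6.81, 11.6 and 6.38 CPM in Cap IP and changed by -1.37 ± 0.35 (SE), EDC3, a decapping enhancer opposite to CLK3, by -2.14 ± 0.49 (SE), and EIF4ENIF1, the eIF4E transporter opposite to SFI1, by -2.08 ± 0.32 (SE). The 4 rows did not overlap between fractions. TGS1, which makes the trimethylguanosine cap, was higher in all 3 Cap IP libraries and did not pass (log2 change 0.99 ± 0.45 (SE), adjusted p = 0.0858). With the library pair as a replicate block it did, with a log2 change of 0.89. Of 29 other initiation factors 2 rose and none fell, with a median of 0.14 with TMM and -0.63 with total counts, where none rose and 7 fell. EIF3J, opposite to SPG11, changed by 1.21 and EIF3L, opposite to ANKRD54, by 0.93, and neither passed with total counts (0.42 and 0.18).

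Nuclear RNA processing genes were called about as often in each direction as all rows (18.5% higher and 21% lower) in the first list. Of 39 spliceosome and snRNP genes 6 rose and 8 fell, with a median of 0.34 (-0.42 with total counts, where none rose and 17 fell). PRPF8, the scaffold at the heart of the spliceosome with a longest transcript of 7445 bases, stood at 161, 219 and 164 CPM in input and 31.1, 26.3 and 24.3 CPM in Cap IP and changed by -2.74 ± 0.27 (SE). SNRNP200, its helicase partner, stood at 183, 224 and 205 CPM in input and 32.1, 31.5 and 56.8 CPM in Cap IP, a change of -2.33 ± 0.29 (SE), and SF3B3 changed by -2.38 ± 0.35 (SE). All 3 fell without overlap. PRPF4 and SNRPB2 changed upward by 1.61 and 1.2 with TMM, and neither passed with total counts (0.87 and 0.45). Of 35 hnRNP and SR protein genes 3 rose and 1 fell with TMM, and none rose and 9 fell with total counts. The row that fell with TMM was SRRM2, opposite to TCEB2, which stood at 343, 336 and 349 CPM in input and 68.1, 52.5 and 88.1 CPM in Cap IP and has a longest transcript of 9045 bases. Of 18 cleavage and polyadenylation genes 1 rose and 3 fell, and with total counts none rose and 7 fell. CPSF1, opposite to ADCK5, changed by -1.49 ± 0.28 (SE), and PABPN1, the nuclear poly(A)-binding protein, by 1.35 ± 0.36 (SE), or 0.63 with total counts without passing.

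Of 36 nuclear pore and export genes 9 fell and 2 rose, with a median of -0.59, and with total counts 19 fell and none rose. The share that fell with TMM was 25%, against 21% of all rows, and 40.2% of all rows fell with total counts. NUP98, opposite to PGAP2, stood at 28.4, 35.3 and 32.5 CPM in input and 4.86, 8.41 and 6.38 CPM in Cap IP, and NUP188, opposite to SH3GLB2, at 49.8, 41.2 and 42.6 CPM in input and 18.5, 13.7 and 10.9 CPM in Cap IP. They changed by -2.29 ± 0.40 (SE) and -1.65 ± 0.31 (SE) without overlap, and XPO5, the exporter of microRNA precursors opposite to POLR1C, by -1.65 ± 0.40 (SE). Of 24 RNA polymerase II and pausing genes 4 rose and 2 fell with TMM, and none rose and 10 fell with total counts. With TMM the share that rose, 16.7%, was near the 18.5% of all rows. The share that fell, 8.33%, was below the 21% of all rows. POLR2A, the largest subunit of the polymerase, stood at 83.4, 102 and 89.4 CPM in input and 37.9, 21.0 and 34.5 CPM in Cap IP and changed by -1.54 ± 0.30 (SE). NELFE, of the pausing factor NELF, stood at 80.2, 123 and 77.6 CPM in input and 224, 281 and 206 CPM in Cap IP and changed by 1.34 ± 0.27 (SE), which became 0.57 with total counts (edgeR adjusted p = 0.0663). Of 29 nucleolar genes 8 fell and 2 rose, with a median of -0.10, and with total counts 13 fell and 1 rose. POLR1A, the largest subunit of RNA polymerase I, stood at 65.3, 86.1 and 54.4 CPM in input and 8.75, 8.41 and 7.66 CPM in Cap IP and changed by -3.05 ± 0.32 (SE) (adjusted p = 1.74e-06). NOP16, opposite to HIGD2A and ARL10, stood at 269.6, 276 and 232 CPM in input and 936, 1252 and 954 CPM in Cap IP and changed by 2.01 ± 0.30 (SE), also called with total counts (1.25).

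Rows that lie inside a gene of the other strand were described as a class, a split added after seeing the data. Of 278 rows without opposite exons but within the body of such a gene, 133 fell and 22 rose, with a median of -1.10. The 4659 rows not inside such a gene had a median of -0.25, with 973 that fell and 404 that rose. Among the mRNA, lncRNA and pseudogene rows the contrast was widest for processed pseudogenes, which are copies of mRNAs pasted back into the genome. Inside a gene of the other strand, 51 of 72 fell and 2 rose (median -2.99), and outside one 5 of 22 fell and 7 rose (median 0.36). With total counts 57 fell and 1 rose inside (median -3.71), and 7 fell and 2 rose outside (median -0.41). ZBTB12P1 had 21, 19 and 31 counts in input and none in Cap IP, at least 14.5-fold lower by the same floor. MARK2P8 (15, 14 and 37 counts in input) was at least 13.5-fold lower and LINC01159 (14, 13 and 38 counts in input) at least 13.3-fold. Rows like these, without Cap IP counts, could pass the filter only where they were high in another group, so the filter fixed their direction. Their part in the counts of each class was not tested. Among ribosomal protein pseudogenes, whose reads can be split with the parent genes, 5 of 23 rose and 10 fell, and with total counts 1 rose and 11 fell. With TMM 21.7% of them rose and 43.5% fell, against 18.5% and 21% of all rows. RPL13P12 stood at 39.4, 40.6 and 33.3 CPM in input and 100.1, 103 and 107 CPM in Cap IP and changed by 1.45 ± 0.28 (SE), and RPL23AP64 stood at 32.3, 30.5 and 24.0 CPM in input and 0.972, 3.15 and 2.55 CPM in Cap IP and changed by -3.64 ± 0.44 (SE). The lncRNA rows inside a gene of the other strand also had a negative median (-1.12, 40 rows) where those outside had a positive one (0.27, 62 rows, and -0.48 with total counts).

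The largest falls of single rows included many with no Cap IP count. Of the 12460 rows, 87 had no count in any Cap IP library and all 87 were called lower, while no tested row lacked counts in input. A row without Cap IP counts could pass the filter only where it was high in another group, so the filter fixed this direction and the count is a description. LRRC71 had 10, 21 and 38 counts in input (at least 14.1-fold lower) and CNTN2, a neuronal adhesion molecule, 17, 16 and 26 counts in input (at least 12-fold). ZNF750, opposite to TBCD, had 10, 27 and 35 counts in input and was at least 14.7-fold lower. SMIM5, opposite to RECQL5, had 50, 60 and 73 counts in input and 1, 0 and 1 in Cap IP, with a log2 ratio of -5.81 (95% counting interval -8.87 to -3.93). Among rows without opposite exons, ZC3H6, a zinc finger protein, stood at 17.5, 9.09 and 26.1 CPM in input and 96.3, 69.4 and 92.6 CPM in Cap IP and changed by 2.28 ± 0.40 (SE), and DLGAP1-AS2 stood at 4.53, 9.09 and 12.2 CPM in input and 66.1, 76.7 and 28.7 CPM in Cap IP and changed by 2.67 ± 0.40 (SE). Both rose without overlap and with both scalings. SMPDL3A, which encodes a phosphodiesterase, C4orf51 and LYPLAL1-AS1 rose by 2.37, 2.38 and 2.59 from means close to the floor of 3 counts in input.

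Among the most abundant rows, 2 with an annotated name lie opposite to well known mRNAs. BEST1 stood at 12178, 6303 and 7117 CPM in input and 41884, 29631 and 23133 CPM in Cap IP and changed by 1.89 ± 0.39 (SE), and its exons lie opposite to FTH1, which encodes the ferritin heavy chain. MIF-AS1, opposite to the cytokine gene MIF, stood at 4106, 6043 and 4733 CPM in input and 17854, 37519 and 22256 CPM in Cap IP and changed by 2.38 ± 0.38 (SE) (edgeR adjusted p = 8.48e-05). Both rose without overlap and with both scalings. Over 1169 pairs of rows that lie opposite to each other, 140 differed more than 8-fold in input. Of 221 pairs with both rows called, 184 changed in the same direction, and the log2 changes of the pairs correlated across genes with r = 0.398, where the paired rows share their libraries and possibly reads. Rows whose name matched no annotated gene, mostly clone names, held 34.1 ± 0.751% of counts in input and 45.6 ± 3.83% in Cap IP (SD, n = 3), without overlap. Of 2340 such rows tested 864 rose and 495 fell, with a median of 0.53, or -0.23 with total counts, where 334 rose and 767 fell.

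The same contrast in eIF4E-Flag cells, from 3 other input and 3 other Cap IP libraries, was set beside that of vector cells. It called 21.9% of rows higher and 23.3% lower. The rows called in the same direction in both cell types numbered 3854, which is 78.3% of the vector calls and 68.5% of the eIF4E calls, and no row was called in opposite directions. Across the 12460 genes the log2 changes correlated with a Pearson r of 0.861 and a Spearman rho of 0.871, as a description of libraries made alike. By edgeR's interaction test of the difference itself 0% of rows passed, and by DESeq2 none passed either. With the title stem as a replicate block 51 rows passed, all with a higher log2 change in eIF4E cells. At an unadjusted p under 0.05, 5.84% of rows were found. The median of giant ubiquitin ligases and kinases was -2.28 in vector and -2.10 in eIF4E cells, that of collagens -1.43 and -1.70, and that of RNA polymerase III transcripts -6.73 and -7.35. Histones had 0.92 and 0.61, and large subunit ribosomal proteins 0.66 and 0.31, both with TMM. Mitochondrial mRNAs had -1.17 and -0.46. RFFL, a ubiquitin ligase gene opposite to LIG3, had among the smallest unadjusted p of the difference, with 133, 90.9 and 132 CPM in input and 26.3, 12.6 and 16.6 CPM in Cap IP in vector cells and log2 changes of -2.68 in vector and -0.90 in eIF4E cells, and it did not pass after adjustment.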

How the data were processed

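Libraries of total RNA and of cap immunoprecipitated RNA from vector U2OS cells were grouped by the labels, and all 12 libraries of the series entered the fit so that the groups share 1 estimate of the spread. The deposited values are raw counts per gene name. Per the submitters' processing notes, the authors used STAR 2.5.1b, featureCounts 1.4.5-p1 and GRCh38.p5, and DESeq2. For the strand setting and the annotation release, they state nothing. The tests used edgeR 4.0.16 in R 4.3.3, with filterByExpr, TMM, the quasi-likelihood test and a mean for each group, and a row was called where the Benjamini-Hochberg adjusted p was under 0.05. A prior count of 2 entered log2 CPM. Of 58684 rows 12460 were tested. Libraries held 1279340 to 1813486 counts in vector cells, and intervals and floors cover counting error only.

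Gene classes, lengths and opposite exons came from GENCODE 44. Rows matched by symbol (33465, 57.0% of counts) or older name (1660, 4.27%), and 23559 with 38.7% did not match. Start windows were taken from RefSeq. Whether library pairs deviate together was checked by correlating residuals from group means, which gave 0.43, 0.27 and 0.44 for vector pairs, so the pair was also used as a block. Alternatives were DESeq2 1.42.0, its size factors in edgeR, total counts, no filter, at least 50 counts in 3 libraries, only the 6 vector libraries, the block, and each library left out. The procedure was tested on simulated data. The members and lists were chosen with earlier results of these data known. Named genes were the cap enzymes, the largest changes with and without opposite exons (average log2 CPM of at least 2, no overlap), up to 4 members per list with the smallest p, up to 2 against its majority, the 5 most abundant rows and those with the smallest p of the difference between cell types. Clone-named rows and rows of these sets with weaker support are not described singly, and some named rows are not reported here.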

Additional observations from a re-analysis of the deposited data

Results flagged for a closer look

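HLA-C, a classical MHC class I gene, had log2 ratios of opposite sign in the 2 kinds of cells with TMM scaling. Its log2 ratio of Cap IP over input was 0.78, 0.19 and 1.18 in the 3 vector library pairs and -0.27, -0.32 and -0.34 in the 3 eIF4E pairs. The fitted difference between eIF4E and vector cells was -1.16 on the log2 scale, with an unadjusted p of 0.0203 that did not pass edgeR's adjustment. In vector cells the row stood at 44.6, 48.6 and 61.6 CPM in input and 77.8, 55.7 and 142 CPM in Cap IP, with overlap. Its call there (edgeR adjusted p = 0.0458) was lost with total counts (0.771) and without input library 1 (0.129), input library 2 (0.111) or Cap IP library 3 (0.385). Reads of HLA genes can be split among close relatives.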

How the results depend on the processing

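The 4921 rows called in vector cells (2308 higher, 2613 lower) were 4833 (2187 and 2646) by DESeq2, 4929 (2191 and 2738) with DESeq2 size factors, 5563 (2184 and 3379) without a filter and 4424 (2057 and 2367) from the 6 vector libraries alone. With at least 50 counts in 3 libraries, which leaves fewer rows to test, 2949 were called (1408 higher and 1541 lower). With total counts 738 rose and 5013 fell, 5751 in all. With the title stem as a replicate block, 6084 were called (2902 and 3182), and among the genes named the block changed only the call of TGS1. Leaving out each vector library in turn gave 4044 to 4687 calls (1882 to 2137 higher, 2110 to 2550 lower). Among the genes named, 32 that rose with TMM lost their call with total counts. EIF4E, PCIF1 and MYL12A lost theirs without a filter, and EIF4E2 and HLA-C theirs without a filter, with DESeq2, its size factors, the stricter filter and the 6 libraries alone. Leaving out 1 library ended between 3 and 7 of these calls, each given beside its gene, and TGS1 gained one without Cap IP library 3. The difference between cell types had 0 calls in each setting run except the block, where 51 rows were called, all with a higher log2 change in eIF4E cells. Depth limits rows near the floor of 3 counts. The cause of these shifts was not tested, and no named gene changed direction among called values.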

Other observations

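Cell cycle, stress and metabolic genes are given beside all rows, of which 18.5% rose and 21% fell (median -0.04) with TMM and 5.92% and 40.2% (median -0.78) with total counts. Of 34 tested replication licensing and S phase genes 7 fell and 1 rose (median 0.03), and with total counts 16 fell and 1 rose (-0.74). POLE, the catalytic subunit of DNA polymerase epsilon, stood at 53, 81.2 and 48.5 CPM in input and 13.6, 7.36 and 7.66 CPM in Cap IP and changed by -2.68 ± 0.38 (SE), and GINS3, of the replicative helicase, stood at 12.9, 22.4 and 12.2 CPM in input and 62.2, 79.9 and 49.2 CPM in Cap IP and changed by 2.00 ± 0.36 (SE). Neither row overlapped between fractions. Of 35 mitotic genes 4 rose and 3 fell (median 0.01), and with total counts 1 rose and 11 fell (-0.74). MKI67, the proliferation marker with a longest transcript of 12716 bases, stood at 473, 294 and 347 CPM in input and 92.4, 49.4 and 90.7 CPM in Cap IP and changed by -2.25 ± 0.50 (SE).

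Of 23 p53 target genes 3 rose and 1 fell (median 0.21), and with total counts 1 rose and 5 fell (-0.53). GADD45A, a stress sensor, stood at 16.2, 20.3 and 9.70 CPM in input and 56.4, 65.2 and 47.9 CPM in Cap IP and changed by 1.88 ± 0.32 (SE), with 1.12 and a call with total counts as well. Of 19 glycolysis enzymes 6 fell and 1 rose (median -0.71), and with total counts 14 fell and none rose (-1.47). GPI stood at 86.0, 142 and 85.2 CPM in input and 39.9, 62.0 and 50.4 CPM in Cap IP (edgeR adjusted p = 0.00754, or 0.0616 without input library 2). HK2, a hexokinase, was the row that rose, with 22.6, 34.7 and 19.4 CPM in input and 55.4, 114 and 56.8 CPM in Cap IP, and its change of 1.55 became 0.76 with total counts (adjusted p = 0.0639). Of 19 cholesterol synthesis genes 4 fell and 1 rose, and with total counts 7 fell and none rose. SREBF2, their transcription factor, stood at 73.7, 105 and 115 CPM in input and 27.2, 29.4 and 51.7 CPM in Cap IP and lies opposite to SREBF2-AS1. Of 15 interferon-stimulated genes 4 fell and 1 rose, and with total counts 5 fell and none rose. IRF7, a factor of the interferon response, stood at 19.4, 13.4 and 21.1 CPM in input and 1.94, 1.05 and 2.55 CPM in Cap IP and changed by -3.15 ± 0.59 (SE).

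Of 28 reported eIF4E targets 2 rose and none fell (median 0.01), and with total counts 2 rose and 9 fell (-0.71). The 2 that rose were CCNA2, opposite to EXOSC9, with 105, 70.0 and 45.5 CPM in input and 298, 451 and 117 CPM in Cap IP, and FGF2, opposite to NUDT6, with 40.1, 67.9 and 48.1 CPM in input and 125, 281 and 156 CPM in Cap IP. Both rose with both scalings, by 1.98 ± 0.40 (SE) and 1.84 ± 0.33 (SE) with TMM, and the strand of their counts is uncertain. The 12 targets without opposite exons had no called row. Of 176 zinc finger transcription factors 39 fell and 25 rose (median -0.38), and with total counts 81 fell and 6 rose (-1.11). ZNF592 stood at 38.8, 57.2 and 53.1 CPM in input and 8.75, 10.5 and 15.3 CPM in Cap IP and changed by -2.07 ± 0.32 (SE), and ZNF747, opposite to ZNF747-DT, rose by 2.58 ± 0.35 (SE). Chaperone genes had 4 of 33 that rose and none that fell (median 0.06), and with total counts 2 rose and 15 fell (-0.70). TCP1, a chaperonin subunit opposite to ACAT2, stood at 249, 176 and 167 CPM in input and 819.7, 712 and 433 CPM in Cap IP and changed by 1.73 ± 0.31 (SE), also called with total counts (0.96).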
